A study of Mus musculus with 2 samples.

Results

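The Forkhead (Fox) genes code for transcription factors that share a DNA-binding domain, the winged helix or forkhead domain. The members were all protein-coding genes whose symbol is Fox, a letter from a to s and a number, which gave 44 genes among the 21474 protein-coding genes measured. Their RNA was read by total RNA-seq in the lung of mouse embryos of strain B6NCrl at embryonic day 16.5 (E16.5), in 2 libraries, biological replicates of 1 group. Each was made with 10 ng of RNA above 200 nt in size, extracted with a mirVana kit from lungs pooled over both sexes, from 41 embryos in replicate 2 and from a number not given in replicate 1. There is no treated or mutant group, so the values below are levels, ratios within a library and differences between the pools, given as mean ± SD over n = 2 with no test. In whole lung, fewer cells of a type and less RNA per cell cannot be told apart.

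Several Fox proteins are known regulators of lung development. Foxa1 and Foxa2 are pioneer factors that open chromatin in the foregut endoderm and its airway epithelium, and Foxf1 acts in the mesenchyme and the endothelium downstream of hedgehog signals from that epithelium. Foxp1, Foxp2 and Foxp4 are mostly repressors that bind DNA as dimers and restrain epithelial differentiation, Foxj1 drives the making of motile cilia, and Foxm1 drives entry into mitosis.

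The libraries held 38852470 expected counts in replicate 1 and 27145411 in replicate 2, of which 41200 and 27763 fell on Fox genes. All of the defining markers of lung epithelium (5 of 5), mesenchyme (4 of 4) and endothelium (4 of 4) reached 1 TPM, the unit of level per length of transcript, in both replicates. Markers of neighbouring organs differed between the pools, where a difference of 2-fold or more on the log2(TPM + 1) scale was found in 1.20% of the 13469 protein-coding genes compared. All 9 liver markers were 2-fold or more higher in replicate 2 (Afp, Alb, Apoa1, Apoa2, Ahsg, Fga, Fgb, Fgg and Ttr), with summed levels of 65.0 and 537 TPM in replicates 1 and 2. So were 5 of 10 thymus markers (Psmb11, Prss16, Ptcra, Cd3g and Lck), with sums of 40.6 and 93.9 TPM, and 5 of 9 skeletal muscle markers (Acta1, Myh8, Tnni2, Tnnt3 and Mylpf), with sums of 206 and 569 TPM. None of 8 heart markers was 2-fold apart, with sums of 1382 and 1214 TPM, and none of 4 basal cell markers was, with sums of 59.1 and 80.7 TPM, although the keratin gene Krt5, at 3.65 and 7.86 TPM, was past 2-fold without the added 1 TPM.

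The family is defined by its sequence, and a stretch from the centre of its shared domain is shown here for 6 members described below: the highest member Foxf1 with its relative Foxf2, the ciliary and mitotic members, and a member each of the Foxp and Foxn genes. In the recognition helix of the forkhead domain, 42 of the 44 genes code for 5 residues in a row: arginine, histidine, asparagine or serine, leucine, and serine or threonine. The 2 genes without these residues were Foxr1 and Foxr2, neither of which was detected. Each line gives 51 coding bases, 5′ to 3′, from the GENCODE M21 transcripts of build mm10, and the capitals mark the 15 bases that code for the 5 residues.
Foxf1: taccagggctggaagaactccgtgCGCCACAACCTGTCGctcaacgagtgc
Foxf2: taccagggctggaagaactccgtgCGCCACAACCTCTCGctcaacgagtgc
Foxp4: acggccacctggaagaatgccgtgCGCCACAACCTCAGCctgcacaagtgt
Foxj1: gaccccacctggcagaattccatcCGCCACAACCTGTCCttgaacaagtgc
Foxm1: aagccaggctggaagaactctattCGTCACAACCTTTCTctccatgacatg
Foxn3: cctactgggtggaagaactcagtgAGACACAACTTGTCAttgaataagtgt
The 15 bases in capitals took 32 different forms across the 42 genes. Foxf1 and Foxf2 had the same base at 50 of the 51 positions. Between subfamilies the stretch was less alike, with 38 positions shared by Foxf1 and Foxj1, 35 by Foxf1 and Foxm1, 34 by Foxf1 and Foxn3, and 33 by Foxf1 and Foxp4. The authors' expected counts divide reads that match more than 1 gene by estimate, and how many reads these members share was not measured. As rounded here, the counts of Foxp4 were whole numbers, 803 in replicate 1 and 617 in replicate 2. Those of Foxf2 and Foxj1 in replicate 2 were whole too, at 681 and 962. Some members not shown in this set had fractional counts, such as Foxq1 at 63.71 and 45.87.

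Detection was set at a level of at least 1 TPM in each of the replicates. By this rule 22 of the 44 Fox genes were detected, while the share among all protein-coding genes was 61.5%. Of these 22, 11 genes reached 10 TPM in both replicates and 11 lay between 1 and 10 TPM. The median level over all 44 members was 1.45 and 1.42 TPM in the 2 libraries, against 4.71 and 5.02 TPM over all protein-coding genes. Among detected genes the medians were 9.97 and 10.6 TPM for Fox genes and 19.1 and 18.9 TPM for all protein-coding genes. The whole family summed to 546 TPM in replicate 1 and 525 TPM in replicate 2, or 536 ± 15 TPM. Foxf1, Foxp1 and Foxp2 together made 52.5% of that sum in replicate 1 and 52.2% in replicate 2. By subfamily, the Foxp genes held 33.9 ± 0.68% of the family's TPM, the Foxf genes 24.0 ± 1.05%, the Foxn genes 13.6 ± 0.46%, the Foxj genes 8.33 ± 0.51%, the Foxa genes 7.09 ± 0.36% and Foxm1 6.49 ± 0.33%.

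**Figure D1:**
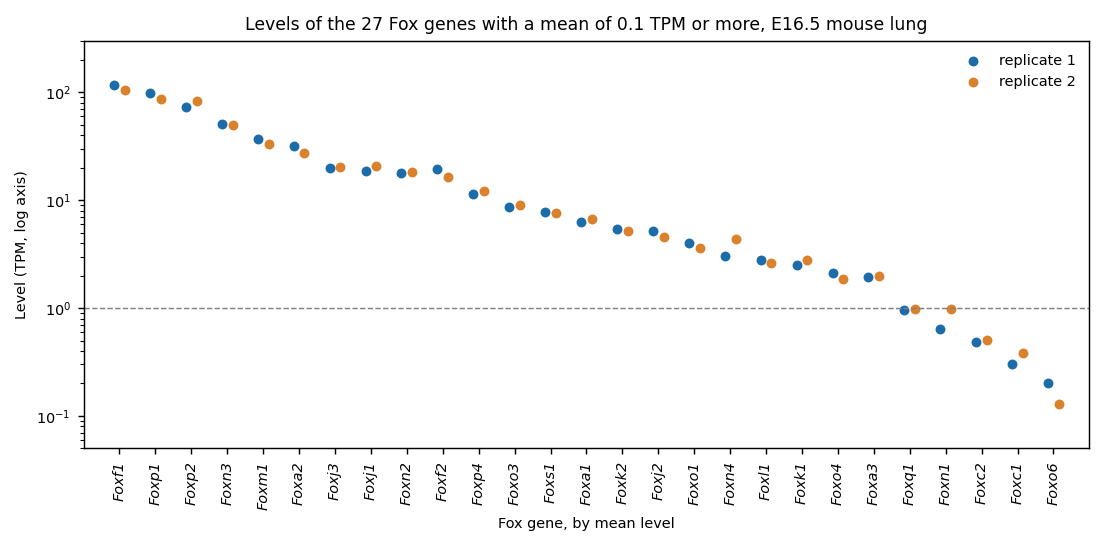
Level in TPM on a log axis of the 27 Fox genes with a mean of 0.1 TPM or more, with a point for each replicate, ordered by mean level and with a dashed line at 1 TPM. The order runs from Foxf1 at 116 and 106 TPM through Foxa3 at 1.95 and 2.00 TPM, the lowest of the 22 detected genes, to Foxo6 at 0.20 and 0.13 TPM.

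Foxf1, the mesenchymal and endothelial member of chromosome 8 (121084386 to 121088144, plus strand, mm10), had the highest level of the family. It reached 116 TPM in replicate 1 and 106 TPM in replicate 2, a mean of 111 ± 7.11 TPM, above 93.5% of protein-coding genes. Its close relative Foxf2, on chromosome 13 (31625816 to 31631403, plus strand), had 19.2 TPM in replicate 1 and 16.2 TPM in replicate 2. Foxf1 exceeded Foxf2 by 2.64 ± 0.08 on the log2 scale, and the ratio had the same sign in both libraries.

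Both Foxf genes sit in clusters with other Fox genes, and the neighbours were much lower. Foxc2, a gene of lymphatic and vascular development, starts 31.79 kb downstream of the Foxf1 start and had 0.48 TPM in replicate 1 and 0.51 TPM in replicate 2. Foxl1, a gene of subepithelial mesenchyme in the gut, starts 43.55 kb downstream and had 2.79 and 2.59 TPM. The log2 ratio of Foxf1 was 7.54 ± 0.14 over Foxc2, or 6.22 with a pseudocount of 1 TPM, and 5.31 ± 0.02 over Foxl1. On chromosome 13, Foxq1 lies 69.68 kb before Foxf2 at 0.95 and 0.97 TPM, and Foxc1, which acts in the eye, heart and vessels, lies 180.8 kb after it at 0.30 and 0.38 TPM. Foxf2 exceeded Foxq1 by 4.07 ± 0.19 on the log2 scale, or 3.25 with a pseudocount of 1 TPM.

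Fendrr, a long noncoding RNA that starts 1276 bases from the Foxf1 start on the opposite strand, was the other high gene of the chromosome 8 cluster. It had 36.5 TPM in replicate 1 and 39.9 TPM in replicate 2. Foxf1 exceeded it by 1.53 ± 0.19 on the log2 scale, and the annotated extents of the genes do not overlap. A different pairing was seen on chromosome 4, where the noncoding Foxd2os had 2.43 and 2.56 TPM while Foxd2, whose start is 384 bases away, had 0.06 and 0.04 TPM.

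**Figure D2:**
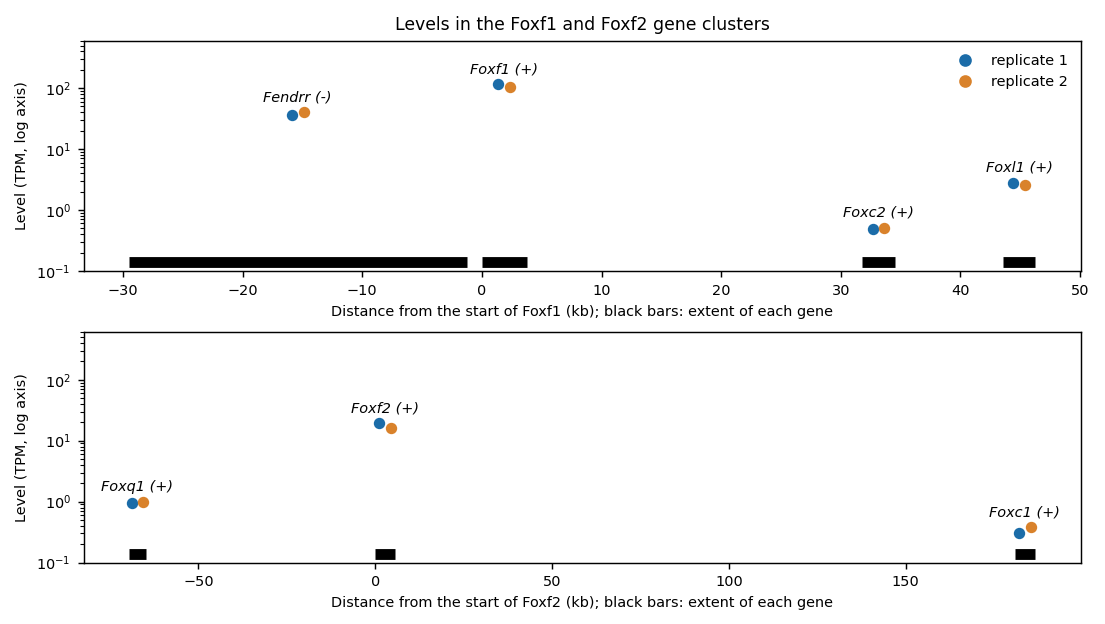
Level in TPM on a log axis of each gene of the Foxf1 cluster (top) and the Foxf2 cluster (bottom), with a point for each replicate, by distance in kb from the start of Foxf1 or Foxf2, with black bars for the extent of each gene and the strand in brackets. Foxf1 and Fendrr stand above 30 TPM, while Foxc2, Foxq1 and Foxc1 are below 1 TPM in both replicates.

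The Foxf and hedgehog list held 23 genes of the hedgehog pathway, the lung mesenchyme and the endothelium. Of these, 22 were detected, with a median of 34.2 ± 0.48 TPM, and none differed 2-fold between replicates. The highest were Tcf21, a mesenchymal transcription factor, at 322 and 331 TPM, the endothelial adhesion gene Pecam1 at 126 and 117 TPM, and the hedgehog target Hhip at 84.3 and 83.2 TPM. The hedgehog ligand of the lung epithelium, Shh, had 8.24 TPM in replicate 1 and 9.23 TPM in replicate 2. Ihh, the ligand of gut and cartilage, was the member below 1 TPM, at 0.15 and 0.18 TPM. Foxf1 was above the list's median in both replicates and Foxf2 below it.

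Among the endodermal members, Foxa2 was the highest. Foxa2 (chromosome 2, 148042877 to 148046969, minus strand) had 31.9 TPM in replicate 1 and 27.2 TPM in replicate 2. Foxa1 (chromosome 12, 57540628 to 57546916, minus strand) had 6.27 and 6.67 TPM. Foxa3, best known from liver and gut, had 1.95 and 2.00 TPM. Within each library Foxa1 lay below Foxa2, by a log2 ratio of -2.17 ± 0.22, which was -1.49 on expected counts not divided by length, and Foxa2 lay above Foxa3 by 3.83 ± 0.19. The summed liver markers were 65.0 TPM in replicate 1 and 537 TPM in replicate 2 while Foxa3 was level, and the part of liver RNA in the Foxa values was not tested.

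Of the 25 genes of the Foxa epithelial list, 24 were detected, with a median of 34.3 ± 5.11 TPM. The highest were the surfactant gene Sftpc at 10880 and 14170 TPM, the airway secretory gene Scgb3a2 at 933 and 1258 TPM, and the transcriptional inhibitor Id2, a marker of the distal tips, at 498 and 448 TPM. Muc5b, a mucin gene of airway secretory cells, had 0.45 TPM in replicate 1 and 0.99 TPM in replicate 2. None of the 24 genes compared was 2-fold apart on the log2(TPM + 1) scale, although the surfactant gene Sftpd, at 2.68 and 5.41 TPM, was past 2-fold without the added 1 TPM. Nkx2-1, the lung lineage factor that binds beside Foxa proteins, had 77.0 TPM in replicate 1 and 62.6 TPM in replicate 2.

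Transcripts of Foxa2 were divided differently in the pools although the gene's level was close. Foxa2-202, which starts at position 148045948, held 52.9% of the gene's TPM in replicate 1 and 82.0% in replicate 2. Foxa2-201, which starts 1021 bases further upstream, held 39.3% and 12.7%. These transcripts share 2018 bases, and only 110 bases of Foxa2-201 and 52 bases of Foxa2-202 tell them apart. The deposited credibility bounds overlapped between replicates for both transcripts. For Foxa2-201, replicate 1 had bounds of 7.68 and 18.3 TPM and replicate 2 of 1.31 and 8.94 TPM. For Foxa2-202 the bounds were 10.2 and 21.1 TPM in replicate 1, and 15.5 and 24.1 TPM in replicate 2. Foxa2-202 led in both replicates.

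The windows around these starts are shown because the Foxa2 transcripts differ there. Each is the RefSeq window of 300 bases (build GRCm38.p6, minus strand), from 250 bases before to 50 bases after the start, with every CG pair in capitals.
Foxa2 start of Foxa2-202, chr2:148045899-148046198: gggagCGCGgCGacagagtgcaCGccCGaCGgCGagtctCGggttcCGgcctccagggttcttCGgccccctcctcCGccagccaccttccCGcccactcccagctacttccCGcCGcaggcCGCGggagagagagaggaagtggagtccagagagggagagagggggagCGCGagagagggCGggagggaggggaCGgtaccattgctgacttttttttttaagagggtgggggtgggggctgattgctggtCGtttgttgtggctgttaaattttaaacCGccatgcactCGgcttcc
Foxa2 start of Foxa2-201, chr2:148046920-148047219: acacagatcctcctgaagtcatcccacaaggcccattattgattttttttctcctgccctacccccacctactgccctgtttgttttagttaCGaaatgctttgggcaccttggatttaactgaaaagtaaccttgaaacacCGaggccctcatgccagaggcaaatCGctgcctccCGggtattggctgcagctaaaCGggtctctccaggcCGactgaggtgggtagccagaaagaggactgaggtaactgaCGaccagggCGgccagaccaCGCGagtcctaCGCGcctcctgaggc
The window of Foxa2-202 held 23 CG pairs at a GC content of 64.0%, and that of Foxa2-201 held 12 at 54.3%. A forkhead binding word, TGTTTAC on either strand, was in neither.

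The Foxp genes made the largest share of the family's RNA. Foxp1 (chromosome 6, 98925338 to 99522721, minus strand) had 97.5 TPM in replicate 1 and 86.1 TPM in replicate 2. Foxp2 (chromosome 6, 14901349 to 15441977, plus strand) had 73.5 and 82.1 TPM. Foxp1 was above Foxp2 in both replicates, but the log2 ratio of 0.24 ± 0.24 was no larger than its spread. On expected counts not divided by length it was -0.18. Of the 19 ratios computed per length, 18 had a sign that both replicates shared and a mean beyond 2 SD, and Foxp1 over Foxp2 did not. Foxp4 had 11.4 and 12.2 TPM, below Foxp1 by a ratio of 2.95 ± 0.20 (log2, Foxp1 over Foxp4). Foxp3, the factor of regulatory T cells, was near 0, at 0.09 and 0.04 TPM.

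All 19 genes of the Foxp partner list, which holds the NuRD and CtBP corepressors and reported targets of Foxp proteins in lung, were detected. Their median was 38.5 ± 5.22 TPM and none was 2-fold apart. The highest were the histone-binding NuRD subunit Rbbp7 at 441 and 429 TPM, the deacetylase Hdac1 at 207 and 204 TPM, and the corepressor Ctbp1 at 184 and 180 TPM. Gatad2b, a NuRD subunit that binds Foxp proteins, had 8.60 and 9.32 TPM. The lowest member, the airway factor Sox2, had 1.12 and 1.30 TPM.

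The files list 32 transcripts of Foxp1 and 19 of Foxp2. Foxp1-225, of 1848 bases, was the highest Foxp1 transcript by TPM, with 42.6% of the gene in replicate 1 and 38.2% in replicate 2. By expected counts, which are not divided by length, the 7177-base Foxp1-204 was higher, with 1941 counts in replicate 1 and 1250 in replicate 2, against 1901 and 1066 for Foxp1-225. Transcripts that start near the start of Foxp1-225 held 44.5% and 40.0% of the gene's TPM, and 30.2% and 25.5% of its counts. Those at the start of Foxp1-206, further upstream, held 11.8% and 15.1% of TPM, and 24.4% and 30.0% of counts. Transcripts at other starts, Foxp1-204 among them, held 43.61% and 44.85% of TPM, and 45.28% and 44.46% of counts.

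Transcripts that code for the 5 forkhead residues held 71.2% of Foxp1 TPM in replicate 1 and 70.1% in replicate 2. In Foxp2 the share was lower, at 40.1% and 34.0%, and transcripts annotated as processed transcript, retained intron or nonsense-mediated decay, none of which codes for these residues, held 39.3% and 44.3% of TPM and 17.8% and 19.6% of counts. Short transcripts weigh more in TPM than in reads. By expected counts the forkhead-coding share was 89.8% and 89.0% for Foxp1 and 70.0% and 66.4% for Foxp2. The highest Foxp2 transcript, Foxp2-207, held 38.4% and 31.9% of the gene's TPM. The noncoding Foxp2-217, of 352 bases, held 13.8% and 20.4% on 67.0 and 78.6 counts.

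**Figure D3:**
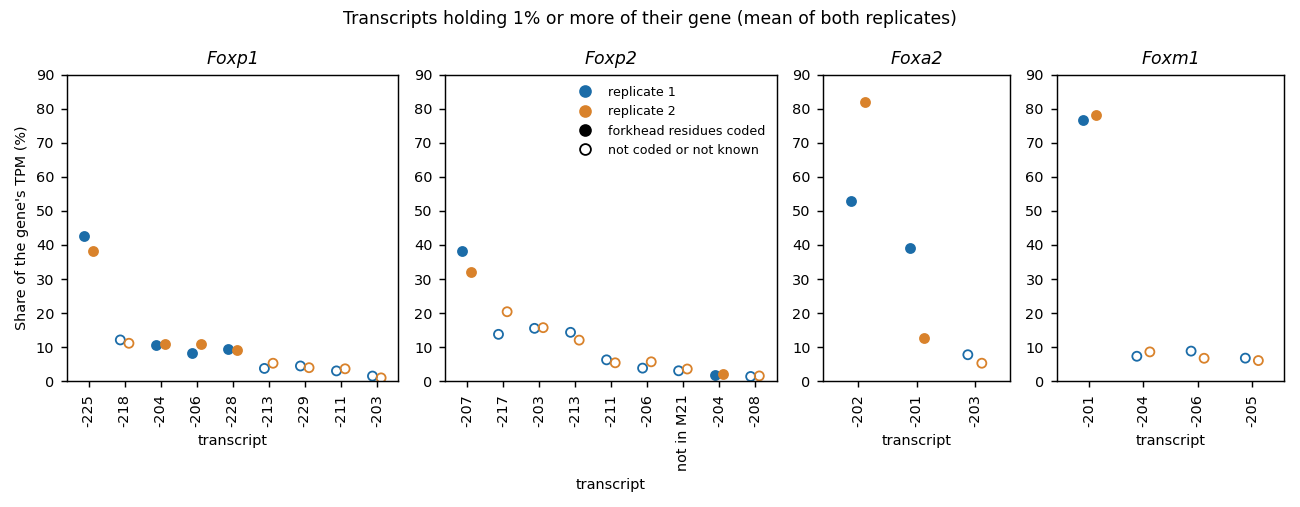
Share of the gene's TPM, in percent, held by each transcript with a mean share of at least 1%, for Foxp1, Foxp2, Foxa2 and Foxm1, with a point for each replicate, filled where the transcript codes for the 5 forkhead residues. Foxa2-202 stands at 52.9% and 82.0% and Foxa2-201 at 39.3% and 12.7%, while Foxm1-201 stands at 76.8% and 78.2%.

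The window around the Foxp1-225 start is shown beside that of the start of Foxp1-206, with every CG pair in capitals (RefSeq, GRCm38.p6, minus strand).
Foxp1 start of Foxp1-225, chr6:99028249-99028548: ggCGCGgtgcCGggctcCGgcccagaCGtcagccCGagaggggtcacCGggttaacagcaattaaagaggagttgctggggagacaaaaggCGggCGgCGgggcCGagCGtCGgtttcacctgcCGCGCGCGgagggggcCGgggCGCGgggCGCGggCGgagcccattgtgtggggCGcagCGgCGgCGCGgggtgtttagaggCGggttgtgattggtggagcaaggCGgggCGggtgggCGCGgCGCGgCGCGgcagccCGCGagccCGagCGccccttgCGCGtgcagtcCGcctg
Foxp1 start of Foxp1-206, chr6:99266466-99266765: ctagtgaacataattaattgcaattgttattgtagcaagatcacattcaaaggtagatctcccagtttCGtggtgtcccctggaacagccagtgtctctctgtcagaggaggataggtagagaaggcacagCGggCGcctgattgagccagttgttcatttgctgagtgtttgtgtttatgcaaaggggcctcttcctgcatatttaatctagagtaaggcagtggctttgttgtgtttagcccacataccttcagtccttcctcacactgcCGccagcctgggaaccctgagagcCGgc
The window at Foxp1-225 held 44 CG pairs at a GC content of 75.3%. The window at Foxp1-206 held 5 at 48.7%. The RefSeq table had 33 such windows for 28 members, with a median GC content of 62.7%, against 52.7% over all 32851 windows. All windows cover 27025 genes, more than the 21474 protein-coding genes measured. The comparison here and below is therefore not with protein-coding genes alone. The ratio of observed to expected CG pairs had a median of 0.787 in 17 windows of 13 of the 22 detected members. It was 0.560 in 16 windows of 15 of the 22 members not detected, and 0.384 over all windows. Foxa2 and Foxp1 had 3 windows each, so the medians are over windows and not over genes. TGTTTAC, on either strand, was in 1 of the 33 windows, that of Foxa1, or 3.03%, and in 3.65% of all windows. TATAAA, the TATA box word, on either strand, was in 3 of 33, or 9.09%, and in 13.6% of all windows. The remaining members, Foxf1, Foxp2, Foxm1 and Foxj1 among them, had no window in this set.

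Foxj1, the factor of multiciliated cells (chromosome 11, 116330704 to 116335399, minus strand), had 18.6 TPM in replicate 1 and 20.6 TPM in replicate 2. The Foxj1 list of 26 genes of ciliogenesis and of the axoneme, the inner skeleton of the cilium, had 21 detected members and a median of 7.01 ± 0.57 TPM, with none 2-fold apart. Foxj1 was above that median in both replicates. The highest list members are not particular to cilia: the tubulin gene Tubb4b at 568 and 612 TPM, the E2F partner Tfdp1 at 129 and 123 TPM, and E2f4 at 60.1 and 54.2 TPM. The early regulators Mcidas and Ccno had 8.26 and 7.68 TPM and 12.8 and 13.2 TPM. The members below 1 TPM were Gmnc, at the head of the programme, at 0.21 and 0.23 TPM, the dynein heavy chains Dnah5 (0.30 and 0.48 TPM), Dnah9 (0.80 and 0.76 TPM) and Dnah11 (0.92 and 0.64 TPM), and Hydin of the central pair (0.40 and 0.57 TPM). The median difference of the 21 members compared was 0.15 (log2), against -0.01 over protein-coding genes, and Foxj1 differed by 0.14. The median size of a difference over protein-coding genes was 0.10. Whether Foxj1 varies with its list was not tested.

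Foxm1, the mitotic factor (chromosome 6, 128362967 to 128376146, plus strand), had 36.7 TPM in replicate 1 and 32.9 TPM in replicate 2. All 24 genes of its list, which holds its reported targets and the subunits of the MuvB complex that it joins, were detected, with a median of 92.3 ± 3.0 TPM. The highest were the mitotic kinase Cdk1 at 468 and 487 TPM, its binding partner Cks1b at 434 and 410 TPM, and the MuvB subunit Rbbp4 at 325 and 297 TPM. None was 2-fold apart. The median difference of the 24 was -0.09 (log2). Over protein-coding genes the median was -0.01 and the median size of a difference 0.10. Foxm1 itself differed by -0.16, and whether it varies with its list was not tested.

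GENCODE M21 has 4 coding transcripts of Foxm1, of which only Foxm1-201 and Foxm1-202 were measured. These differ by a short internal coding exon, which is shown here. It is exon 6 of 8 of Foxm1-201, 45 bases at chr6:128371968-128372012 on the plus strand of mm10, printed 5′ to 3′ in lower case from GENCODE M21.
Foxm1 exon 6: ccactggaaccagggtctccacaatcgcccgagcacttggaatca
Transcripts that hold this exon had 93.0% of Foxm1 TPM in replicate 1 and 93.6% in replicate 2. Foxm1-202, which skips it, was listed at 0 in both. Foxm1-201 alone held 76.8% and 78.2% of TPM, and 3 short transcripts with retained introns held most of the rest. By expected counts, which are not divided by length, the forkhead-coding share was 96.3% in replicate 1 and 96.6% in replicate 2. The highest count among the 3 short transcripts was that of Foxm1-206, 61.5 in replicate 1, against 3169 for Foxm1-201.

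The FoxO genes, which respond to insulin and Akt signals, were low to moderate. Foxo3 had 8.57 TPM in replicate 1 and 8.95 TPM in replicate 2, Foxo1 had 4.04 and 3.61 TPM, and Foxo4 had 2.12 and 1.87 TPM. Foxo6, best known from brain, was not detected, at 0.20 and 0.13 TPM. Foxo1 lay below Foxo3 by a log2 ratio of -1.18 ± 0.16. All 30 genes of the FoxO pathway list were detected, with a median of 16.3 ± 0.47 TPM and none 2-fold apart. The highest were the 14-3-3 genes Ywhaz at 677 and 609 TPM and Ywhab at 259 and 246 TPM, whose proteins hold phosphorylated FoxO proteins in the cytoplasm, and the mitophagy gene Bnip3 at 113 and 110 TPM. Akt2 had 75.0 and 77.8 TPM, and Akt1 had 35.6 and 36.5 TPM.

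**Figure D4:**
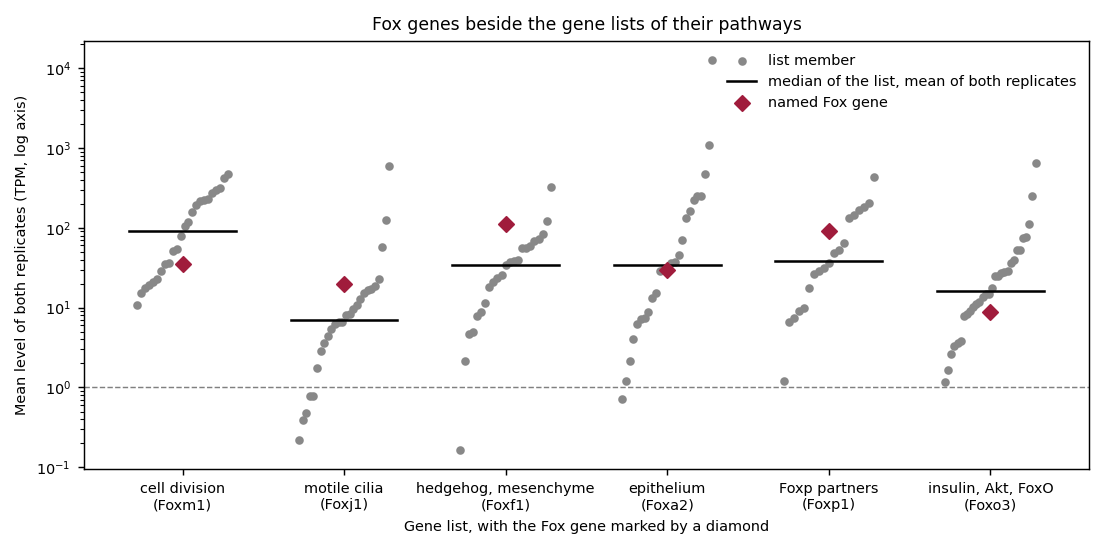
Mean level of both replicates in TPM on a log axis for each gene of the 6 lists (grey points), with the list's median as a line and a Fox gene of that pathway as a diamond. Foxf1, Foxp1 and Foxj1 lie above the median of their lists, Foxm1 and Foxo3 below, and Foxa2 close to it.

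Members that are broadly expressed in adult tissues made up much of the remainder. Foxn3, a repressor with roles in the cell cycle checkpoint (chromosome 12, 99190078 to 99563582, minus strand), was the fourth highest of the family and had 51.0 TPM in replicate 1 and 49.7 TPM in replicate 2. Foxn2 had 18.0 and 18.3 TPM, and Foxn3 exceeded it by 1.47 ± 0.04 on the log2 scale. On expected counts, which are not divided by length, that difference was 0.01. Foxj3 had 19.8 and 20.5 TPM, and Foxj2, which lay below it by 2.02 ± 0.16, had 5.21 and 4.60 TPM. Foxk2 had 5.45 and 5.16 TPM and Foxk1, its partner in the control of glycolysis and autophagy genes, had 2.52 and 2.76 TPM.

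Among more restricted members, Foxs1, expressed in pericytes and peripheral sensory neurons, had 7.83 TPM in replicate 1 and 7.61 TPM in replicate 2. Foxn4, known from retinal and spinal interneuron progenitors, had 3.04 and 4.39 TPM. Foxn4 had the largest log2 difference of the 22 detected members, 0.42 on the log2(TPM + 1) scale in favour of replicate 2.

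In the order of the 22 detected genes, 11 of 21 neighbouring pairs differed beyond their spread. This means the same sign in both replicates and a mean log2 ratio beyond 2 SD. An SD of 2 values is a rough guide, and no test was made. Foxf1 was above Foxp1, which was not separated from Foxp2, with Foxp2 above Foxn3, Foxn3 above Foxm1, Foxm1 above Foxa2 and Foxa2 above Foxj3. Foxj3, Foxj1, Foxn2 and Foxf2, between 16.2 and 20.6 TPM, were not separated from their neighbours in this run. Foxf2 was above Foxp4, Foxp4 above Foxo3, Foxo3 above Foxs1, Foxs1 above Foxa1 and Foxa1 above Foxk2. However, the deposited credibility bounds of Foxo3 and Foxs1 overlapped in both replicates, as did those of Foxa1 and Foxk2. The bounds of Foxs1 and Foxa1 overlapped in replicate 2, so the order of these 4 genes is uncertain. Foxk2 and Foxj2 were not separated, Foxj2 was above Foxo1, and no neighbours in the run Foxo1, Foxn4, Foxl1, Foxk1, Foxo4 and Foxa3 were separated.

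The remaining 22 members were not detected, and 13 of them had counts. Foxq1 was closest to the limit at 0.95 and 0.97 TPM, below Foxa3, the lowest detected member, at 1.95 and 2.00 TPM. Foxn1, the factor of the thymic epithelium, had 0.64 TPM in replicate 1 and 0.97 TPM in replicate 2. The summed thymus markers were 40.6 TPM in replicate 1 and 93.9 TPM in replicate 2, and the part of thymus RNA in the Foxn1 value was not tested. Foxc2 and Foxc1 followed at 0.51 TPM or less in both replicates. The others with counts, among them Foxo6, Foxd3, Foxd1, Foxp3, Foxd2, Foxe1, Foxb1 and Foxr1, had 0.20 TPM or less in both. Several of these are factors of brain, neural crest or kidney.

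The other 9 members (Foxh1, Foxe3, Foxd4, Foxl2, Foxi1, Foxi2, Foxi3, Foxr2 and Foxb2) had 0 counts in both replicates. A count of 0 leaves room for up to 3 counts when counting error alone is considered, so the upper limit, which depends on length, lay between 0.0377 and 0.150 TPM in replicate 1 and between 0.0532 and 0.211 TPM in replicate 2. Foxi1 is the factor of ionocytes, of whose 5 markers only Cftr was detected, and Bsnd was at 0. Foxe1, the thyroid member at 0.03 and 0.04 TPM, stood beside 5 thyroid markers of which none was detected.

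None of the 22 Fox genes that averaged 1 TPM or more differed 2-fold between replicates on the log2(TPM + 1) scale. Of the 13469 protein-coding genes compared, 1.20% did, and for 22 genes a count of 0 is near that share. Members were spread to both sides, with 10 higher and 12 lower in replicate 2. Their median log2 difference was -0.04 and the median size of the difference 0.11, against -0.01 and 0.10 over protein-coding genes. After Foxn4 the largest differences were those of Foxf2 at -0.23, Foxa2 at -0.22 and Foxp1 at -0.18. Foxp2, at 0.16, was among the higher genes of replicate 2.

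**Figure D5:**
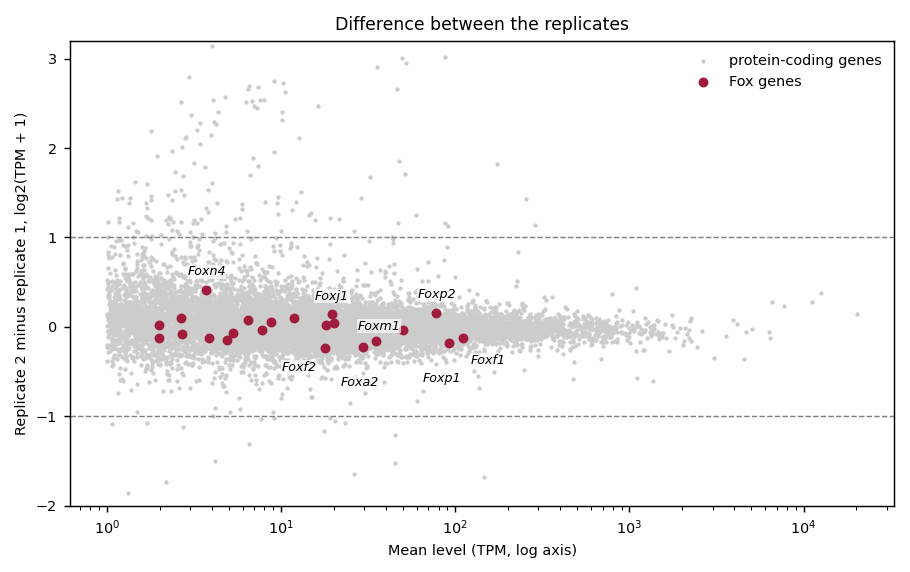
Difference on the log2(TPM + 1) scale, with replicate 1 subtracted from replicate 2, against the mean level in TPM on a log axis, for protein-coding genes that average 1 TPM or more (grey) and the 22 Fox genes among them (red), with dashed lines at 2-fold; 10 protein-coding genes lie outside the plotted range. All 22 Fox genes lie between the dashed lines, with Foxn4 the highest at 0.42.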

How the data were processed

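The notes deposited with the RNA-seq tables name build mm10 and GENCODE M4, and the aligner, quantifier and strand setting are not given in the sources used here. The expected counts deposited by the authors estimate reads per gene or transcript. TPM and FPKM values, per the file headers, divide by effective length, and the spike-in rows share the TPM total. The score columns deposited beside TPM are credibility bounds, and the percent columns the authors deposited give a transcript's share of its gene. Symbols, transcript names and exons were taken from the later GENCODE M21 on mm10, matched by identifier for 42462 of 43346 gene rows. Foxa1-201, Foxm1-201 and a Foxp2 transcript differ in length between the annotations, and 1 transcript each of Foxp1 and Foxp2 has no match in M21.

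Members and lists were chosen with earlier results of these data known. Every member was counted, and those with a mean of at least 1 TPM are given in both replicates. From each list the 3 highest genes, those below 1 TPM in both replicates and those 2-fold apart were named, and further genes were named after their values were seen. Dnai1 and Dnai2 were matched through older symbols. Differences used log2(TPM + 1), which understates low genes, and ratios a pseudocount of 0.1 TPM. Depth was 38852470 and 27145411 expected counts. With 2 replicates the smallest two-sided p of an exact sign-flip test is 0.5, so no test was made. Python 3.11.15, NumPy 2.4.6, pandas 2.3.3, Biopython 1.88 and matplotlib 3.10.9 were used, and edgeR 4.0.16 in R 4.3.3 gave TMM factors from rounded counts for an alternative. Alternatives covered detection limits, posterior means, FPKM, scaling, pseudocounts, filters and each replicate alone. Some values of single genes and some sequences are not reported here.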

Additional observations from a re-analysis of the deposited data

How the results depend on the processing

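The summed level of the Fox genes, 536 TPM, became 638 TPM when TPM was rescaled over protein-coding genes alone, since fewer genes then share the total. With each replicate alone it ran from 525 to 546 TPM. The log2 ratio of Foxp1 over Foxp2 turned to -0.18 on expected counts not divided by length. The number of detected members was 24 at 0.5 TPM and 20 at 2 TPM, and 22 with posterior means, with FPKM at 1 and with each replicate alone. No member was 2-fold apart under any of the 6 alternatives run, the 1.5-fold limit included. Over protein-coding genes the share past the limit ran from 0.84% with no filter on low values to 3.02% at 1.5-fold. For so few members a count of 0 is near those shares and says little about the family. With posterior means, 10 neighbouring pairs in the order differed, against 11. On counts not divided by length, 17 of the 19 ratios had a sign that both replicates shared and a mean beyond 2 SD. Foxc1 over Foxc2 (-0.01) and Foxn3 over Foxn2 (0.01) did not. The 17 include Foxp1 over Foxp2, whose sign was the reverse of that on TPM. The other 38 results for the family and its lists stayed within the replicate spread or within 1.5 times, some of these chosen after seeing the data (posterior means and each replicate alone for the lists and transcript groups). Of the single genes, ratios and transcript shares, 189 values moved by less than 1 SD, 40 by more and 1 reversed. The 189 include every value with a replicate left out, which with n = 2 moves by less than 1 SD by arithmetic. Those values say nothing about stability. The same holds for the summed level with each replicate alone, which is among the 38 above. Leaving a replicate out gives no spread, so the order, the held signs, the leading transcripts and the differences have no such value. No paired analysis was possible because the 2 replicates form a single group. Depth limits the members below 1 TPM, where a few counts set each value.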
